A study of Mus musculus with 5 samples.

Results

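The genes described here code for subunits of the mitochondrial respiratory chain. A list of 47 nuclear genes for subunits of complexes I, II, III and IV was drawn up, and each was matched to the array by a probe set (a group of oligonucleotide probes read as 1 value) annotated with that gene symbol alone. Where a gene had more than 1 such probe set, the one with the highest mean was used. All 47 were found among the 19938 genes tested: 27 in complex I, 4 in complex II, 6 in complex III and 10 in complex IV.

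The respiratory chain passes electrons from NADH and succinate to oxygen across the inner mitochondrial membrane. Complex I (NADH dehydrogenase) and complex II (succinate dehydrogenase) feed electrons to ubiquinone, complex III passes them to cytochrome c, and complex IV (cytochrome c oxidase) reduces oxygen. Complexes I, III and IV pump protons, and ATP synthase, often called complex V, uses the resulting gradient. Most subunits are coded in the nucleus and imported, while a small set is coded by mitochondrial DNA.

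RNA of 5 mouse pancreatic cultures was hybridised to 1 Affymetrix array each. The 2 normal ductal cultures carried Pdx-1Cre and p53L/L. The 3 cultures of pancreatic ductal adenocarcinoma (PDAC) carried Pdx-1Cre, p53L/L and APCL/+, so that the Cre driver and the p53 alleles were shared by both groups and the Apc allele went with the tumour state. Pdx-1 drives Cre in the pancreatic lineage. Cells were kept in RPMI medium with 10% serum for fewer than 6 passages, in a growth text that spoke of PDAC cells for every sample; no ages were given. In its title, normal ductal replicate 2 is given without Cre and as pancreatic cells only, and PDAC replicate 3 carries an added note, mutant cell, that the other PDAC titles lack. The labels speak of biological replicates and name no separate animals, so a p-value measures only the spread between these 5 cultures.

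Marker genes were read on the same arrays. The mean log2 signal of 9 duct epithelium markers was 10.63 and 10.25 in the normal ductal cultures and 6.58, 7.72 and 9.38 in the PDAC cultures, so the tumour cultures had lower levels of the genes that define the labelled duct cell. Normal ductal replicate 2 also stood apart from replicate 1 in markers of other cells. The mean of 10 fibroblast and stellate cell markers was 7.11 in the first and 9.90 in the second of these cultures, with the PDAC cultures between 8.93 and 9.13. Means of 7 acinar markers (5.41 and 7.25), 8 islet markers (6.23 and 8.04), 10 endothelial markers (5.87 and 6.82) and 9 leukocyte markers (5.96 and 6.42) were also higher in replicate 2 than in replicate 1, and these lists lay between 5.22 and 5.64 in the PDAC cultures. In cultures of mixed cells, fewer cells of a type and less RNA per cell cannot be told apart.

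Most subunit genes had somewhat higher signals in the PDAC cultures, by small amounts. The difference between the group means (PDAC minus normal ductal, on the log2 scale) was above 0 for 41 of the 47 (87.2%), against 53.02% of all genes tested and 56.0% of the 9969 genes whose mean exceeded the median gene mean. The median difference was 0.20 over the subunit genes, 0.01 over all genes and 0.05 over the genes above the median. Single genes ran from -0.43 (Uqcrc2) to 0.63 (Ndufs5). The median size of a difference, without its sign, was 0.26, and the median standard error was 0.17.

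None of the 47 passed limma's moderated test at a Benjamini-Hochberg adjusted p under 0.05. The smallest adjusted p among them was 0.232. At that threshold the test called few genes at all: 1 higher in PDAC (0.00502% of those tested) and 10 lower (0.0502%). At an unadjusted p under 0.05, 8 subunit genes were higher (17%, against 6.5% of all genes) and 1 was lower (2.13%, against 6.86%). In the fit to the genes above the median alone, these counts were again 8 and 1, against 11.4% and 9.07% of the genes fitted. In 15 subunit genes every PDAC array lay above both normal ductal arrays (31.9%, against 13.6% of all genes and 23.0% of genes above the median). In 4 every PDAC array lay below both (8.51%, against 12.8% and 17.1%). In the other 28 the groups overlapped. With each array moved to a common median, 28 subunit genes lay apart and higher and 2 apart and lower, and in that setting 37.7% of all genes lay apart and higher.

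The 5 arrays were not evenly spread. The mean log2 signal over the 47 genes was 9.63 in normal ductal replicate 1, 9.83 in normal ductal replicate 2, and 9.85, 9.89 and 10.06 in PDAC replicates 1, 2 and 3. Normal ductal replicate 1 was the lowest of the 5 arrays for 29 of the genes, and PDAC replicate 3 was the highest for 25 and the lowest for 0. The means of normal ductal replicate 2 and of PDAC replicate 1 thus lay side by side, while replicate 1 and PDAC replicate 3 formed the ends. Between the normal ductal cultures, replicate 2 lay above replicate 1 for 38 of the 47, with a median difference of 0.19, as large as the median difference between the groups. Over all genes that difference was -0.05.

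Single cultures therefore moved the counts. Without normal ductal replicate 1 the median difference of the subunit genes was 0.11, 33 were above 0, and 16 lay apart and higher, a share no larger than the 35.3% of all genes. Without normal ductal replicate 2 the median was 0.31 and 32 lay apart and higher, against 21.0% of all genes. Without PDAC replicate 1, 27 lay apart and higher, against 17.02%. At an unadjusted p under 0.05, 2 subunit genes were higher without normal ductal replicate 1, a smaller share than the 13.5% of all genes. That count was 5 without PDAC replicate 1 (4.79% of all genes) and 5 without PDAC replicate 3 (7.10%). The part of the marker differences between the normal ductal cultures in these values was not tested.

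**Figure D1:**
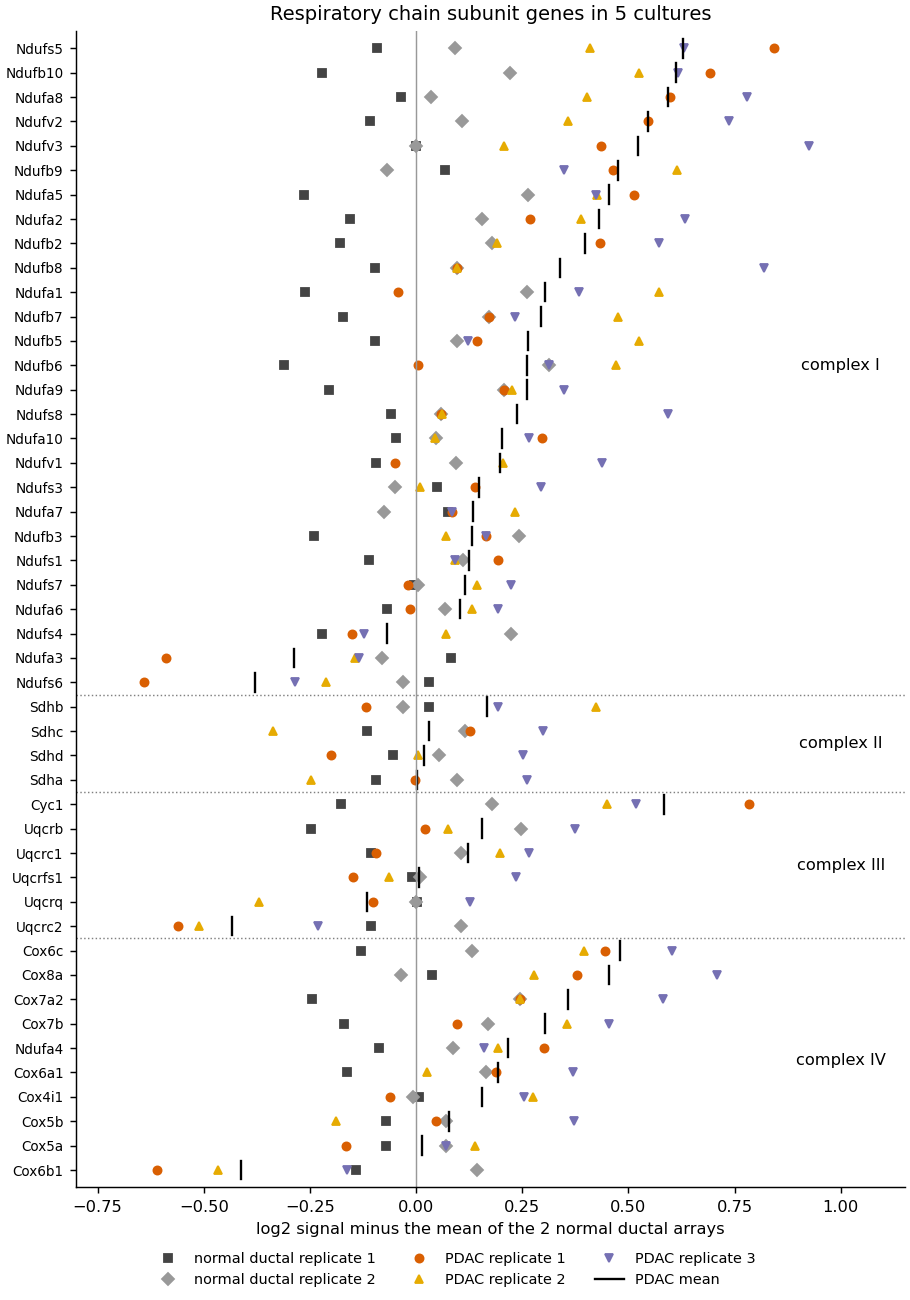
Each row is 1 subunit gene; points are the log2 signal on each of the 5 arrays minus the mean of the 2 normal ductal arrays (horizontal axis), black bars are the PDAC means, and dotted lines part the complexes. Most PDAC means lie right of 0, from -0.43 for Uqcrc2 to 0.63 for Ndufs5, and in 28 of the 47 rows the groups overlap.

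Complex I is the largest enzyme of the chain. Its conserved core binds flavin and the iron-sulfur clusters that carry electrons, and its accessory subunits surround that core. Of the 27 genes, 24 had a difference above 0, with a median of 0.26; 11 lay apart and higher and 2 apart and lower (13.6% and 12.8% of all genes, 23.0% and 17.1% of genes above the median). By array, the median difference from the normal ductal mean was 0.16, 0.21 and 0.35 in PDAC replicates 1, 2 and 3.

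The 6 measured core genes, Ndufs1, Ndufs3, Ndufs7, Ndufs8, Ndufv1 and Ndufv2, had differences between 0.12 and 0.55 with a median of 0.17. Ndufv2, an iron-sulfur subunit of the NADH-binding module (chromosome 17, 66078795 to 66101559), had log2 signals of 9.90 and 10.12 on the normal ductal arrays and 10.56, 10.37 and 10.75 on the PDAC arrays. Its groups did not overlap, and the difference was 0.55 (SE 0.15, 1.46-fold, adjusted p = 0.302 by limma). It was the only core gene whose groups lay apart; the other 5 overlapped, with differences of up to 0.24 (Ndufs8).

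The 21 accessory genes had a median difference of 0.29. Of these, 10 lay apart and higher and 2 apart and lower (13.6% and 12.8% of all genes, 23.0% and 17.1% of genes above the median). Ndufs5 (chromosome 4, 123712710 to 123718186) codes for an accessory subunit of the membrane arm. Its signals were 7.42 and 7.60 on the normal ductal arrays and 8.35, 7.92 and 8.14 on the PDAC arrays, a difference of 0.63 (SE 0.17, 95% interval 0.16 to 1.09, adjusted p = 0.288). Every PDAC array lay above both normal ductal arrays, and the spread among the PDAC arrays was wider than that between the normal ductal arrays.

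Ndufb10, another membrane arm subunit (chromosome 17, 24722060 to 24724423), read 7.20 and 7.64 on the normal ductal arrays and 8.11, 7.95 and 8.04 on the PDAC arrays. The PDAC arrays were close together and the normal ductal arrays 0.44 apart; the difference was 0.61 (SE 0.17, adjusted p = 0.295). Ndufa8 (chromosome 2, 36036324 to 36049338), an accessory subunit facing the intermembrane space, read 10.42 and 10.50 against 11.06, 10.86 and 11.24. Here the normal ductal arrays were close together and all PDAC arrays higher, by 0.59 (SE 0.13, 1.51-fold, adjusted p = 0.243).

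Ndufb9 (chromosome 15, 58933801 to 58939516), a membrane arm subunit with a fold of the LYR family, read 11.66 and 11.52 on the normal ductal arrays and 12.05, 12.20 and 11.94 on the PDAC arrays. It had the smallest adjusted p among the 47, with a difference of 0.48 (SE 0.10, 95% interval 0.19 to 0.76, adjusted p = 0.232), and its groups did not overlap. Ndufv3 (chromosome 17, 31520115 to 31531326), an accessory subunit of the NADH-binding module that is made in a short and a long isoform, read 8.30 on both normal ductal arrays and 8.74, 8.51 and 9.23 on the PDAC arrays. PDAC replicate 3 stood well above the other PDAC arrays, and the difference of 0.52 had an SE of 0.25 (adjusted p = 0.510). The probe set does not part the isoforms.

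Complex I also held genes on the other side. Ndufs6 (chromosome 13, 73319876 to 73328482) codes for a zinc-binding accessory subunit added late in assembly. It read 9.89 and 9.83 on the normal ductal arrays and 9.22, 9.65 and 9.58 on the PDAC arrays, so every PDAC array was lower, PDAC replicate 1 most of all. The difference was -0.38 (SE 0.16, 95% interval -0.84 to 0.08, adjusted p = 0.459). Ndufa3 also lay apart and lower, at -0.29, and the third gene below 0, Ndufs4, overlapped at -0.07. The other accessory genes that lay apart and higher were Ndufa2 (0.43), Ndufa5 (0.45), Ndufb2 (0.40), Ndufb5 (0.26) and Ndufa7 (0.13), the last by a margin between 8.92 on the higher normal ductal and 8.93 on the lower PDAC arrays.

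Complex II differed little between the groups. It is both the citric acid cycle enzyme that oxidises succinate and an entry point of the chain, and it is coded wholly in the nucleus. All 4 genes overlapped between the groups, with a median difference of 0.02. Sdha, the flavin subunit (chromosome 13, 74322255 to 74350240), read 10.88 and 11.07 on the normal ductal arrays and 10.98, 10.73 and 11.24 on the PDAC arrays, a difference of 0.00 (SE 0.18, 95% interval -0.51 to 0.51, adjusted p = 1 by limma), whose sign turned under quantile normalization (-0.02).

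Sdhb, the iron-sulfur subunit (chromosome 4, 140961271 to 140979198), read 9.98 and 9.91 against 9.83, 10.37 and 10.14. PDAC replicate 1 was the lowest and PDAC replicate 2 the highest of the 5 arrays, and the difference was 0.17 (SE 0.19, 95% interval -0.36 to 0.69). The membrane anchors Sdhc and Sdhd differed by 0.03 and 0.02. The intervals still allow a change of the size seen in complex I, so these values do not show that complex II was unaltered. PDAC replicate 3 lay above both normal ductal arrays for all 4 genes.

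Complex III genes went both ways. The complex moves electrons from ubiquinol to cytochrome c through a Rieske iron-sulfur protein and cytochromes b and c1. Cyc1, the gene of cytochrome c1 (chromosome 15, 76343513 to 76346260), read 9.36 and 9.72 on the normal ductal arrays and 10.32, 9.99 and 10.05 on the PDAC arrays. All PDAC arrays were higher, by 0.58 (SE 0.17, 95% interval 0.09 to 1.07, adjusted p = 0.319). Uqcrc2, a core protein of the matrix side (chromosome 7, 120635189 to 120659523), read 10.67 and 10.88 against 10.21, 10.26 and 10.54. All PDAC arrays were lower, by 0.43 (difference -0.43, SE 0.14, 95% interval -0.84 to -0.03, adjusted p = 0.351), and Uqcrc2 was the 1 subunit gene that was lower at an unadjusted p under 0.05. The other 4, Uqcrc1, the Rieske gene Uqcrfs1, Uqcrb and Uqcrq, overlapped, between -0.12 and 0.16.

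Complex IV holds the copper and heme centres that reduce oxygen in its mitochondrially coded core, while the nuclear subunits measured here surround it. Of the 10 nuclear genes 9 had a difference above 0, with a median of 0.21; 3 lay apart and higher and 1 apart and lower, near the 23.0% and 17.1% of genes above the median (13.6% and 12.8% of all genes). Cox6c (chromosome 15, 35931976 to 35938246) read 11.38 and 11.64 on the normal ductal arrays and 11.96, 11.91 and 12.11 on the PDAC arrays, higher on every PDAC array by 0.48 (SE 0.12, adjusted p = 0.260). Cox8a (chromosome 19, 7215158 to 7217616), which codes for a small membrane-spanning subunit, read 10.32 and 10.25 against 10.66, 10.56 and 10.99. The groups did not overlap and the difference was 0.45 (SE 0.16, adjusted p = 0.362), with PDAC replicate 3 the highest.

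Ndufa4 (chromosome 6, 11900372 to 11907450) was named as a complex I subunit and is now counted in complex IV. It read 10.76 and 10.94 on the normal ductal arrays and 11.15, 11.04 and 11.01 on the PDAC arrays. Its groups lay apart by a small margin, with a difference of 0.22 (SE 0.09, adjusted p = 0.426). Cox6b1 (chromosome 7, 30616971 to 30626114), a subunit that joins the monomers of the dimer, read 11.58 and 11.87 against 11.11, 11.26 and 11.56. Every PDAC array was lower, with PDAC replicate 3 close under the nearest normal ductal array; the difference was -0.41 (SE 0.18, adjusted p = 0.466). The other 6, Cox4i1, Cox5a, Cox5b, Cox6a1, Cox7a2 and Cox7b, overlapped, between 0.01 and 0.36.

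**Figure D2:**
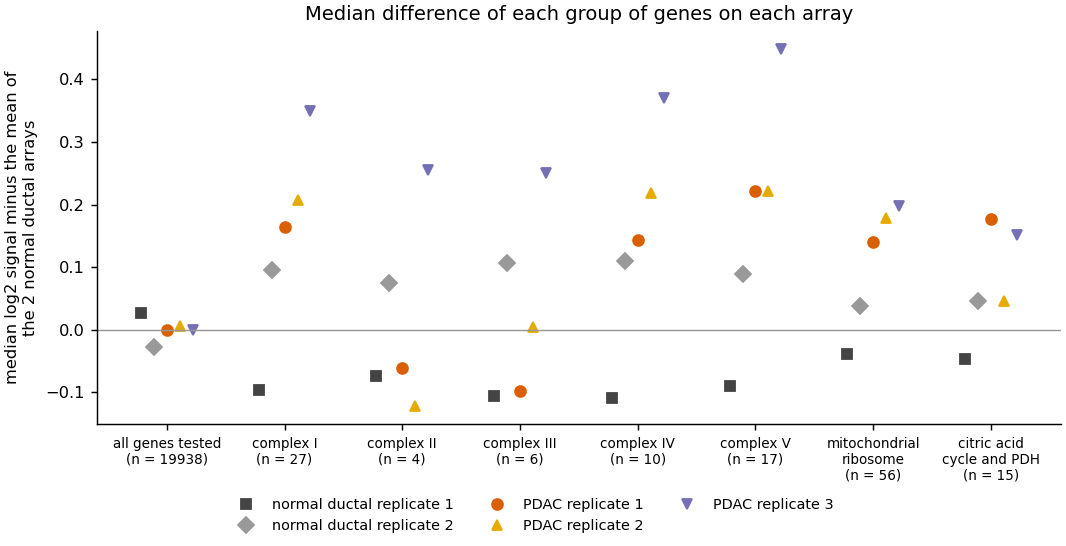
Points are the median, over the genes of each group named on the horizontal axis (n is the number of genes), of the log2 signal on each array minus the mean of the 2 normal ductal arrays (vertical axis). For complex I and complex IV all 3 PDAC arrays lie above both normal ductal arrays; for complex II and complex III only PDAC replicate 3 does, at 0.26 and 0.25.

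Subunit genes were also set beside the other genes of their chromosome. For each chromosome, the shift was taken as the median difference over its other genes with a mean above the median of all genes, centred on the autosomes. Chromosomes 7, 15 and 17, picked after the values were seen, had shifts of -0.29, 0.31 and 0.22. The shift had the same sign in each PDAC array: -0.34, -0.24 and -0.19 in PDAC replicates 1, 2 and 3 on chromosome 7, 0.40, 0.28 and 0.23 on chromosome 15, and 0.22, 0.14 and 0.27 on chromosome 17. Every PDAC array was set against the same mean of the normal ductal arrays, so these signs are not separate repeats. Other chromosomes also had 1 sign in every PDAC array, such as chromosome 18 (-0.13, -0.10 and -0.25). Taken over all genes of chromosomes 7, 15 and 17, low signals included, the shifts were -0.06, 0.11 and 0.07.

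All 3 subunit genes on chromosome 7, Ndufa3, Uqcrc2 and Cox6b1, lay apart and lower, where 23.0% of all genes of that chromosome and 42.4% of its genes above the median did. On chromosome 15, Ndufb9, Cyc1 and Cox6c of 4 lay apart and higher (30.9% of all its genes, 51.0% of those above the median), and Ndufa6 overlapped at 0.10. On chromosome 17, Ndufb10, Ndufv2, Ndufv3 and Ndufa7, 4 of 4, lay apart and higher (26.1% and 46.3%). These 11 genes on 3 chromosomes thus gave 7 of the 15 genes apart and higher and 3 of the 4 apart and lower.

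On the other chromosomes, 33 of 36 subunit genes had a difference above 0, with a median of 0.20. Of these 36, 8 lay apart and higher (22.2%, against 13.1% of all genes there and 21.7% of those above the median) and 1, Ndufs6, apart and lower (2.78%, against 12.4% and 16.2%). With each gene's chromosome shift subtracted, a step added after the data were seen, 39 of the 47 were above 0, the median was 0.17, and the standard deviation over the 47 genes was 0.20 in place of 0.26. Ndufa6 and Ndufa7 turned below 0. After this step Ndufs5 (0.68), Ndufa2 (0.60), Ndufa8 (0.52), Cox7a2 (0.41), Cox8a (0.41), Ndufa5 (0.40), Ndufb2 (0.34) and Ndufb6 (0.315) had differences of over 0.3. So did Ndufb10 (0.39), Ndufv2 (0.33) and Ndufv3 (0.305) on chromosome 17. Ndufs6 stood at -0.32, while Ndufb9 and Cox6c (0.17 each) and Uqcrc2 (-0.15) kept less. What sets the chromosome shifts was not tested.

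**Figure D3:**
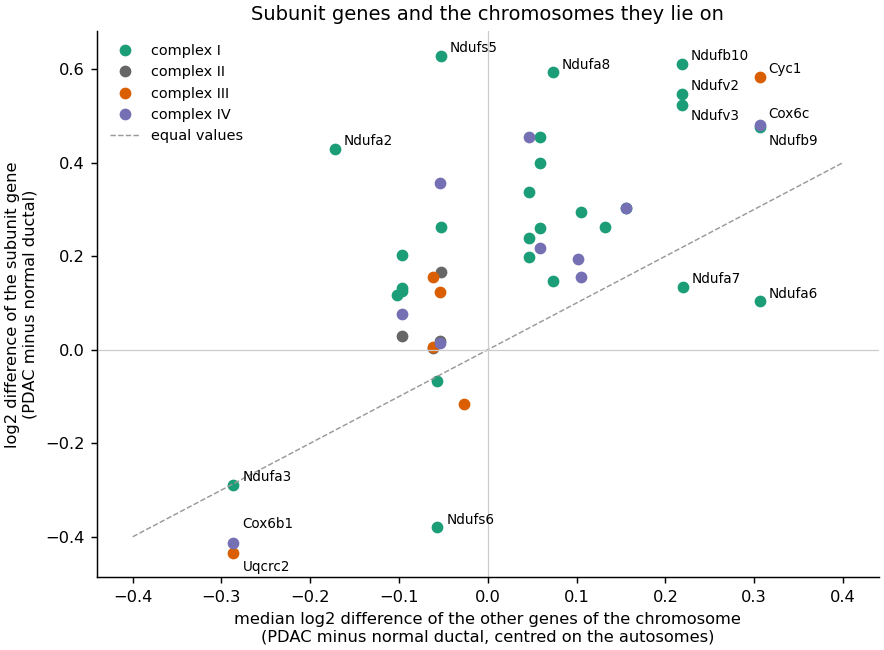
Each point is 1 of the 47 subunit genes, coloured by complex; the horizontal axis is the median log2 difference of the other genes of its chromosome (centred on the autosomes) and the vertical axis its own log2 difference, both PDAC minus normal ductal, with a dashed line where they are equal. The genes of chromosome 7 sit at the lower left near -0.29 and those of chromosomes 15 and 17 at the right near 0.31 and 0.22; Ndufs5 and Ndufa8 lie high with a chromosome shift near 0.

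Promoters of some subunit genes on both sides of 0 are shown as examples. NRF1 (nuclear respiratory factor 1), ETS family factors, whose member GABP is also called nuclear respiratory factor 2, and YY1 are known to bind many promoters of this chain. RefSeq windows of the GRCm38.p6 build, from 250 bases before to 50 after each start, were given for 37 of the 47 genes. Below are the 150 bases before the start, on the gene's strand, 5′ to 3′. Capitals mark a match on either strand to the NRF1 core (GCGCANGCG) or, in Cox6b1, to the ETS core (CCGGAAG). Each gene printed has a match in these bases. In Ndufa3 (apart and lower) this stretch held no match to either core. The same was true of Ndufa4, Ndufa7, Ndufb2, Ndufb5, Ndufb10, Ndufv2, Ndufv3 and Cox8a (apart and higher). In the full window, however, Ndufb10 held the NRF1 core at -2 and Cox8a the ETS core at -5 and 33. Ndufa5 (apart and higher), not printed, had an NRF1 match at -26. Ndufa8 (chr2:36049339-36049488, minus strand) and Ndufs5 (chr4:123718187-123718336, minus strand) lay apart and higher in PDAC; Ndufs6 (chr13:73328483-73328632, minus strand) and Cox6b1 (chr7:30626115-30626264, minus strand) lay apart and lower.
Ndufa8: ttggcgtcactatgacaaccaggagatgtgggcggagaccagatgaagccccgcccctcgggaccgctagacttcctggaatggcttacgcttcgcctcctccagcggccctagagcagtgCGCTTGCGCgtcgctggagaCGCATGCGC
Ndufs5: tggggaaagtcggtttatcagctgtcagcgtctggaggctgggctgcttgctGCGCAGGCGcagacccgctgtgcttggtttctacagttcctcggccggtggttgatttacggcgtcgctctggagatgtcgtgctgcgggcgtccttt
Ndufs6: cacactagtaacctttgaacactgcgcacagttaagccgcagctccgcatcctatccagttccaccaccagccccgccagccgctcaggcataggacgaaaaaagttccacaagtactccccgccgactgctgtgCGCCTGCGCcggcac
Cox6b1: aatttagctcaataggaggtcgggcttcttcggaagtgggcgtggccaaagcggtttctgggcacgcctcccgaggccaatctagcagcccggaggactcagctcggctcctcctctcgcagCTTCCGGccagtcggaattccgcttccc

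The NRF1 core stood in the window of 10 of 37 subunit genes (27.0%), against 7.03% of the 27025 genes in the promoter table and 10.5% of the 15614 of them that were tested. The ETS core stood in 9 (24.3%, against 9.93% and 13.6%), and the YY1 core (AAGATGG) in 6 (16.2%, against 7.28% of either set). At least 1 of these motifs was in 22 of the 37 (59.5%, against 21.4% and 27.1%). The ERR site TCAAGGTCA, bound by estrogen-related receptors, was found in 1 subunit gene, Sdhd (2.70%, against 0.466% and 0.346%). Both strands were searched, and matches to different motifs may overlap. By side, the NRF1 core was in 4 of the 11 genes with a window that lay apart and higher, in 1 of 3 apart and lower, and in 5 of the 23 others. The ETS core was in 1 of the 11, 1 of the 3 and 7 of the 23, and the YY1 core in 0, 2 and 4. Ndufa8 had 2 matches to the NRF1 core and Ndufs6, on the other side, had 1. A match is a run of letters, not a measured binding site.

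Other genes of the same organelle were counted in the same way, and again none passed the adjusted threshold. Of 14 further subunit genes of complexes I, III and IV listed, 10 were measured, with a median difference of 0.20; 3 lay apart and higher and 0 apart and lower (13.6% and 12.8% of all genes). Ndufb11, an accessory subunit of complex I, read 8.57 and 9.04 on the normal ductal arrays and 9.18, 9.40 and 9.72 on the PDAC arrays (difference 0.62, SE 0.24, adjusted p = 0.415). Uqcr10, a small complex III subunit, read 8.95 and 9.04 against 9.54, 9.15 and 9.74 (0.48, SE 0.21, adjusted p = 0.464). Both were higher on every PDAC array.

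The 17 ATP synthase genes had a median difference of 0.30; 7 lay apart and higher and 0 apart and lower (13.6% and 12.8% of all genes), and 3 were higher at an unadjusted p under 0.05 (6.5% of all genes). Atp5h, a stalk subunit, read 10.98 and 11.22 on the normal ductal arrays and 11.39, 11.56 and 11.63 on the PDAC arrays (0.42, SE 0.12, adjusted p = 0.305). Atp5pb, also of the stalk, read 10.83 and 10.96 against 11.17, 11.32 and 11.08 (0.30, SE 0.10, adjusted p = 0.364). Neither gene overlapped between the groups, and the array order within PDAC differed between them.

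Of the 13 subunits coded by mitochondrial DNA, 2 had a probe set with a gene symbol. ND3, a complex I subunit, read 12.11 and 12.21 on the normal ductal arrays and 12.37, 12.24 and 12.50 on the PDAC arrays (0.21, SE 0.09, adjusted p = 0.492), and COX2, a catalytic subunit of complex IV, read 12.64 and 12.80 against 12.84, 12.76 and 12.78 (0.07, SE 0.06). ND3 lay just apart and COX2 overlapped. Cycs, the somatic cytochrome c that links complexes III and IV, read 11.38 and 11.69 against 11.79, 11.77 and 11.38, with PDAC replicate 3 and normal ductal replicate 1 the lowest arrays (0.11, SE 0.19). Cyct, the testis form, stayed between 2.38 and 2.53 on all 5 arrays.

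Subunits that replace the common form in some tissues were also read. Cox4i2, a form of subunit 4 known from lung, read 6.05 and 5.98 on the normal ductal arrays and 6.17, 6.23 and 6.17 on the PDAC arrays (0.18, SE 0.05, adjusted p = 0.293), below the median of gene means of 6.61. Cox6b2, a testis form on chromosome 7, lay apart and lower at -0.23. Ndufa4l2, a paralog of Ndufa4 known to be induced by hypoxia, read 7.18 in PDAC replicate 1 and between 5.40 and 5.67 on the other 4 arrays. The muscle forms Cox6a2, Cox7a1 and Cox8b differed by 0.06, -0.11 and 0.07, the testis forms Cox7b2 and Cox8c by 0.08 and -0.06, and Cox7a2l, a factor that joins complexes into supercomplexes, by 0.23 (SE 0.25). All 6 overlapped between the groups.

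Assembly factors are proteins that build the complexes without staying in them. Of 38 measured, 12 lay apart and higher and 4 apart and lower, with a median difference of 0.11; at an unadjusted p under 0.05, 6 were higher and 2 lower. Over all genes, 13.6% lay apart and higher, 12.8% apart and lower, and 6.5% and 6.86% passed that unadjusted threshold. Uqcc2, an assembly factor of complex III on chromosome 17, read 8.11 and 8.12 on the normal ductal arrays and 9.31, 9.40 and 9.66 on the PDAC arrays. Its difference of 1.34 (SE 0.14, adjusted p = 0.140) was over 2 times that of any of the 47 subunit genes, and the arrays within each group were close. Cox14, an assembly factor of complex IV on chromosome 15, read 8.09 and 8.04 against 8.63, 8.78 and 8.65 (0.62, SE 0.09, adjusted p = 0.166).

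Of 12 regulators of mitochondrial biogenesis, 9 had a difference above 0, with a median of 0.11; 4 lay apart and higher and 1 apart and lower (13.6% and 12.8% of all genes). Ppargc1a, the coactivator PGC-1α, read 5.61 and 5.68 on the normal ductal arrays and 5.86, 7.03 and 9.44 on the PDAC arrays. The groups did not overlap, but the PDAC arrays lay far from each other, and the difference of 1.80 had an SE of 1.19 (adjusted p = 0.550). Gabpa, the DNA-binding subunit of GABP, read 8.96 and 9.37 against 9.44, 9.66 and 9.51 (0.37, SE 0.17, adjusted p = 0.476). Nrf1 read 8.26 and 8.23 against 8.62, 8.68 and 7.77 (0.11, SE 0.34), with PDAC replicate 3 the lowest of the 5 arrays. Tfam, a transcription factor that also packages mitochondrial DNA, read 7.43 and 7.29 against 7.58, 7.25 and 7.56 (0.11, SE 0.14). Tfb1m, a methyltransferase of mitochondrial ribosomal RNA on chromosome 17, read 6.90 and 7.01 against 7.67, 7.26 and 7.43 (0.50, SE 0.15, adjusted p = 0.318). PDAC replicate 3 thus had the highest Ppargc1a signal, the lowest Nrf1 signal and the highest mean of the 47 subunit genes. It was also the lowest array for 6 of the 12 regulators. Their median difference from the normal ductal mean was -0.11 in PDAC replicate 3 and 0.22 in each of PDAC replicates 1 and 2.

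**Figure D4:**
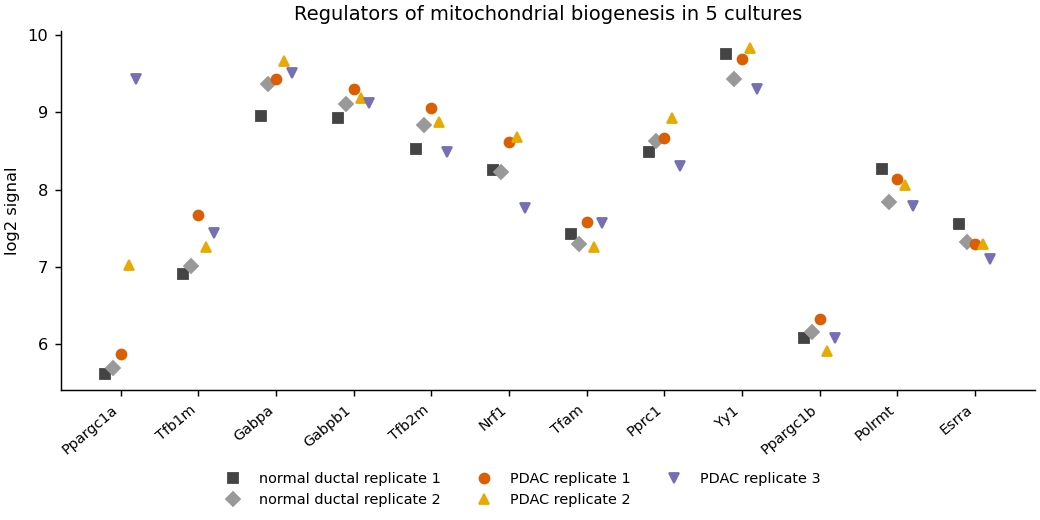
Points are the log2 signal (vertical axis) of 12 regulators of mitochondrial biogenesis on each of the 5 arrays. Ppargc1a spreads from 5.86 to 9.44 over the PDAC arrays, while most other regulators stay within 1 log2 unit over all arrays; levels of different genes come from different probe sets and are not to be compared.

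The citric acid cycle and pyruvate dehydrogenase genes had a median difference of 0.16 over 15 measured, and 2 lay apart and higher (13.6% of all genes did). Those were Mdh2, malate dehydrogenase (11.96 on both normal ductal arrays against 12.14, 12.07 and 12.08; 0.14, SE 0.04, adjusted p = 0.303), and Idh3a, a subunit of isocitrate dehydrogenase (10.42 and 10.53 against 10.67, 10.81 and 10.70; 0.25, SE 0.08, adjusted p = 0.330). Both were small differences between tight groups.

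Of 56 mitochondrial ribosomal protein genes, 19 lay apart and higher and 1 apart and lower (13.6% and 12.8% of all genes), with a median of 0.18. Mrps26, of the small subunit, read 8.18 and 8.21 on the normal ductal arrays and 8.80, 8.85 and 8.86 on the PDAC arrays (0.64, SE 0.07, adjusted p = 0.148). Mrpl28, of the large subunit, read 7.83 and 7.88 against 8.31, 8.43 and 8.39 (0.52, SE 0.08, adjusted p = 0.171). Among 16 import and chaperone genes, 5 lay apart and higher and 1 apart and lower, against the same shares, with a median of 0.12. The receptor genes Tomm20 (0.37, SE 0.12) and Tomm22 (0.38, SE 0.15) were among the 5.

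Lists outside the mitochondrion gave a scale for these values. Of 19 cell cycle genes, 16 lay apart and higher (13.6% of all genes) with a median of 0.53, and 11 were higher at an unadjusted p under 0.05 (6.5% of all genes). Thymidine kinase (Tk1) read 8.43 and 8.50 against 9.81, 9.90 and 10.15 (1.49, SE 0.13, adjusted p = 0.135). Mcm7, which belongs to the helicase that opens DNA for replication, read 9.85 and 9.82 against 10.48, 10.64 and 10.67 (0.76, SE 0.09, adjusted p = 0.149). Averaged over its genes, the cell cycle list was higher on all PDAC arrays (10.43 to 10.46) than on the normal ductal arrays (9.93 and 9.82), so it moved with the groups while the subunit mean was also split within them. Their part in the values of the subunit genes was not tested.

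Of 12 hypoxia response genes, 3 lay apart and higher and 4 apart and lower (13.6% and 12.8% of all genes). The list went both ways, with a median difference of 0.05, 7 genes above 0 and 5 below. The glucose transporter gene Slc2a1 read 11.98 and 11.71 on the normal ductal arrays and 11.02, 10.86 and 10.67 on the PDAC arrays (-0.999, SE 0.15, adjusted p = 0.173). Car9, the hypoxia marker carbonic anhydrase 9, read 9.05 and 9.27 against 4.64, 5.33 and 7.18 (-3.44, SE 0.86, adjusted p = 0.274). Both were lower on every PDAC array.

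**Figure D5:**
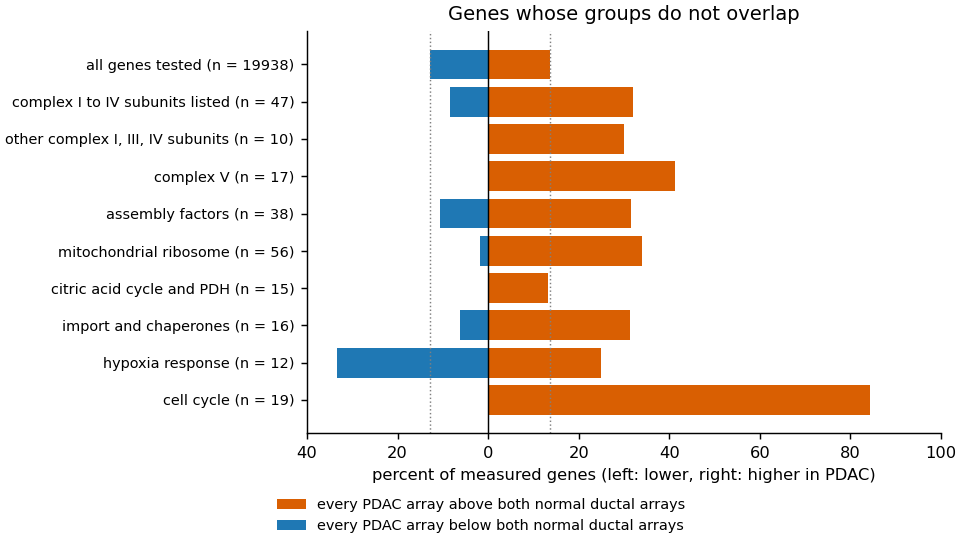
Bars give the percent of measured genes in each list (n in brackets) whose PDAC arrays all lay above both normal ductal arrays (right) or all below (left); dotted lines mark the 13.6% and 12.8% of all genes tested. The 47 subunit genes stand at 31.9% and 8.51%, ATP synthase and the mitochondrial ribosome further to the right, and the cell cycle list farthest. Among genes above the median, not drawn, the shares were 23.0% and 17.1%.

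Most subunit genes were read from 1 probe set (42 of 47). The other 5 were Cox5b, Cox6c, Cox7b, Ndufs3 and Uqcrb. The Cox6c probe set that was not used read 11.2 and 11.3 on the normal ductal arrays and 11.7, 11.7 and 12.0 on the PDAC arrays. It too was higher on every PDAC array. Chromosome positions in the text are those of the gene in RefSeq, and where each probe set maps was not checked. The same value stood on 2 or more arrays for 9 of the 47, and for 47.8% of genes tested. All 47 had a mean above the median of gene means, between 7.73 and 11.95. Many of these genes have processed pseudogenes of near-identical sequence, and signal from such copies would be read as the gene's.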

How the data were processed

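RNA of 5 cultures (2 normal ductal, 3 PDAC) was measured on 1 array each. The authors deposited 1 table of values taken as log2 signals, since they span 0.727 to 13.9 (array medians 5.90 to 6.02) and no log base is stated. Per the submitters' processing notes, Transcriptome Analysis Console 1.0.0.234 and the mm10 build were used; how background, normalization and probe summary were handled is "not given in the sources used here". These values were used as deposited.

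Of 35556 probe sets, 21789 were annotated with 1 gene symbol, 1621 with several and 12146 with none; those with 1 gave 19938 genes. Entrez identifiers matched 21698 probe sets to RefSeq and changed 0 symbols. Groups were compared with limma 3.58.1 in R 4.3.3 (lmFit, eBayes with an intensity trend, no low-signal filter, no covariates; 3 residual and 0.905 prior degrees of freedom), adjusted by Benjamini-Hochberg over all genes at 0.05. The 5 arrays limit the precision. The fit was tested on simulated data whose changes were larger than any difference of the subunit genes, so changes of their size were not covered. Promoter motifs were counted in Python 3.11.15.

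The subunit genes and the context lists were chosen with earlier results of these data known. Named in full were, per complex, genes at an unadjusted p under 0.05 (at most 5 in each direction), those with the most positive and most negative difference, and Ndufa4, Ndufv3 and Cox6c. From each context list, the 2 genes with the smallest p, the tissue isoforms, cytochrome c, Ppargc1a, Nrf1, Gabpa and Tfam were named. Other subunit genes named with a value, Ndufa3 among them, were picked after their values were seen. Other settings tried were the replicate number as a block, array weights, averaging a gene's probe sets, robust variances, no trend, a filter on the lowest 25% of genes, array medians made equal, quantile normalization and dropping each array in turn. Leaving out the lowest 50% of genes and subtracting chromosome shifts were added after the data were seen.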

Additional observations from a re-analysis of the deposited data

How the results depend on the processing

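None of the 47 genes passed an adjusted p under 0.05 by limma under any of the 14 alternatives to the fit, the smallest being 0.0697 without normal ductal replicate 2. The count of genes higher at an unadjusted p under 0.05 was 13 with a common array median (9.35% of all genes), 1 with a replicate block (5.54%), and 2 to 7 with 1 array left out (4.68% to 13.5%, the most where the count was 2). The count lower was 0 with quantile normalization (7.05% of all genes), 0 with a common array median (5.67%), 2 with the replicate block (5.57%), and 0 to 2 with 1 array left out (4.99% to 13.5%). With a common array median, 28 genes lay apart and higher (37.7% of all genes) and 2 apart and lower (9.09%); with 1 array left out, 15 to 32 lay apart and higher (16.0% to 35.3% of all genes). Without normal ductal replicate 1 the 16 genes were a share no larger than that of all genes (35.3%). The median difference was 0.11 to 0.31 with 1 array left out (0.31 without normal ductal replicate 2) and 0.14 with the replicate block. Sdha turned below 0 with quantile normalization (-0.018) and array weights (-0.042), and by leaving out normal ductal replicate 1 (-0.09) or PDAC replicate 3 (-0.13). Its values ran from -0.13 to 0.13 when 1 array was left out. The replicate block (-0.13) gave the same value as leaving out PDAC replicate 3. No other array bears the number 3, so the block takes PDAC replicate 3 out of every difference. These 2 settings are therefore not separate checks of a difference or its sign. Over all 47 genes, 36 kept their sign in all 14 alternatives and 11 did not. The robust model, no trend and the low-signal filters leave each difference unchanged, so they could not turn a sign. The probe set mean can move only genes with more than 1 probe set. Causes were not tested. The replicate numbers are not said to pair the cultures, and deviations from the group means of same-numbered arrays correlated at -0.18 and -0.04. The robust model, no trend, the probe set mean and the filters on low signals left these counts within 1.5 times.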
